A study of Homo sapiens with 2 samples.

Results

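The genes described here encode the proteins of the mitochondrial ribosome. They were taken as the rows whose name consists of MRPL or MRPS, a number and at most a letter A to C, which gave 74 genes of 57773 rows, 46 with large subunit names (MRPL) and 28 with small subunit names (MRPS). Pseudogenes and antisense genes are not among them. Their transcripts were sequenced in BFTC 905, an established cell line from a human bladder cancer, which makes little ANGPTL4 of its own. The ANGPTL4 library came from cells transfected with a plasmid that overexpresses ANGPTL4, a secreted inhibitor of lipoprotein lipase. The vector control library came from the same line transfected with pcDNA3.1-myc-His (-) A, which carries no ANGPTL4. Both were grown in RPMI-1640 with serum and selected as stable clones with G418 at 400 ug/ml. How many clones went into each library is not stated in the labels.

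There was 1 library per group, so no p-value was computed, no difference has a replicate check, and each difference is one between 2 libraries rather than between conditions. The authors deposited RPKM values, in which reads are scaled to exon length and to the library's total. The steps of the RPKM values correspond to 3233596 reads in the ANGPTL4 library and 6572767 reads in the vector control library. A transcript of 2 kb therefore gains 0.155 RPKM per read in the ANGPTL4 library and 0.0761 RPKM per read in the vector control library. ANGPTL4 itself was at 91.2 RPKM in the ANGPTL4 library and 3.92 RPKM in the vector control library. All 7 urothelial and epithelial markers reached 1 RPKM, and KRT19 was at 397.3 and 422.0 RPKM in the same order. Of 5 fibroblast, 4 leukocyte and 3 endothelial markers, PECAM1 had no row, and COL1A1 and CD14 alone reached 1 RPKM. COL3A1, DCN and CD3E were listed at 0 in both libraries.

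The mitochondrial ribosome translates the few proteins encoded by mitochondrial DNA, all of them membrane subunits of the respiratory chain or of ATP synthase. Its ribosomal RNAs come from the mitochondrial genome, but its proteins come from nuclear genes and are imported from the cytosol. The small subunit binds the messenger RNA and decodes it, and the large subunit joins the amino acids and feeds the new chain into the inner membrane. Part of the proteins have bacterial counterparts, and the others are found in mitochondrial ribosomes but not in bacterial ones. The ribosomal RNA rows MT-RNR1 and MT-RNR2 were listed at 0 in both libraries, so the RNA part of the particle was not assessed.

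Promoter sequences of the members are shown first, and the selection of the genes did not use them. Letters bound by ETS factors and by YY1 were more frequent in them than in promoters of measured protein-coding genes. Of the 74 genes, 66 were matched to a RefSeq promoter (GRCh38.p14), a window from 250 bases before to 50 bases after the gene's start. The letters CCGGAAG, the core bound by ETS factors such as GABPA, were searched on both strands and were present in 27 of these windows, or 40.9%. They were present in 10.7% of all 27305 RefSeq promoters and in 20.4% of the 8374 promoters of measured protein-coding genes. The letters AAGATGGCG, the core bound by YY1, were present in 13 of the 66 windows (19.7%), in 1.85% of all promoters and in 4.33% of those of measured protein-coding genes. The palindrome bound by NRF1, without mismatch, was present in 1 window (1.52%), against 1.36% of all promoters and 2.42% of those of measured protein-coding genes. The E-box CACGTG was present in 7 windows (10.6%), against 7.43% of all promoters and 10.4% of those of measured protein-coding genes. None of these letter strings overlaps another within the windows printed here.

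Printed below, 5′ to 3′ along the gene's own strand, are the 200 bases before the start and the first 30 after it for MRPL47, MRPS6 and MRPL53, 3 of the 4 genes that differed at least 2-fold between the libraries. The fourth, MRPL13, is described by its values. MRPS18A is added because, of the 4 windows that hold both the ETS and the YY1 letters, its gene had the highest vector control level. Capitals mark the ETS and YY1 letters on either strand. The windows are chr3:179604609-179604838 on the minus strand for MRPL47, chr21:34073378-34073607 on the plus strand for MRPS6, chr2:74472651-74472880 on the minus strand for MRPL53 and chr6:43687762-43687991 on the minus strand for MRPS18A, all GRCh38.p14.
MRPL47: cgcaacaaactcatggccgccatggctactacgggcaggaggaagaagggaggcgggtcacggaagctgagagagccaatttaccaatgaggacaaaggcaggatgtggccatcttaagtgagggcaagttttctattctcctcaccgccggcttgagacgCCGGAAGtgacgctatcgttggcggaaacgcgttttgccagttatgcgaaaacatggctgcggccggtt
MRPS6: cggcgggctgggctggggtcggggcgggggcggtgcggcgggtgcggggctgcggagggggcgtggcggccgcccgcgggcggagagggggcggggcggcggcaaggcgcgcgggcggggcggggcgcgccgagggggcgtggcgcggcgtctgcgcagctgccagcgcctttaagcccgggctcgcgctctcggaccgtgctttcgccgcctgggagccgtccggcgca
MRPL53: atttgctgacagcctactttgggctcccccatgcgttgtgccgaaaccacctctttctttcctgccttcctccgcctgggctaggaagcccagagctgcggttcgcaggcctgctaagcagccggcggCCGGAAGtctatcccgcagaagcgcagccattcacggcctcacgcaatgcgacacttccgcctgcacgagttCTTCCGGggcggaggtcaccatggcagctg
MRPS18A: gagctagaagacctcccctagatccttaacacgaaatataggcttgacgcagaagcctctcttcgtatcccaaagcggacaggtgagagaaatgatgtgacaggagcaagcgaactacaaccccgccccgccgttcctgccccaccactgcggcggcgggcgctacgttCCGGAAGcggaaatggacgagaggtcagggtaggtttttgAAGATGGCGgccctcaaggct
The first ETS letter lies 39 bases before the start in MRPL47 and 31 bases before it in MRPS18A. MRPL53 holds the ETS letters at 72 bases before the start and, on the other strand, at its first base. The MRPS6 stretch holds none of these letters and has a GC content of 84.3%, against 55.7% in MRPL47. Of these genes, MRPL47 was lower in the ANGPTL4 library and MRPL53 was higher, the latter from 9 and 2 reads in a region that overlaps CCDC142. Whether the letters bear on the ratios was not tested. Over all matched members, the median log2 ratio of ANGPTL4 over vector control was -0.28 with the ETS letters and -0.23 without them, and -0.22 with the YY1 letters and -0.28 without them.

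All 74 genes reached 1 RPKM in at least 1 library, the level called measured here, and 72 reached it in both. Levels per exon length ranged from 0.763 to 63.8 RPKM in the ANGPTL4 library, with a median of 12.7 RPKM. They ranged from 0.226 to 58.4 RPKM in the vector control library, with a median of 15.5 RPKM. The median over all 11801 measured genes was 5.41 RPKM in the ANGPTL4 library and 6.03 RPKM in the vector control library. The order of the genes was similar in both libraries. Spearman's rho of their levels was 0.954 over the 74 genes, which share library and depth, and 8 of the 10 highest genes were the same.

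MRPL11, a protein at the base of the stalk that recruits translation factors, was the highest member in both libraries, at 63.8 RPKM in the ANGPTL4 library and 58.4 RPKM in the vector control library. In the small subunit MRPS34 was highest in the ANGPTL4 library, at 61.5 RPKM, against 52.1 RPKM in the vector control library. MRPS35 was highest in the vector control library, with 37.0 RPKM in the ANGPTL4 library and 58.0 RPKM in the vector control library. MRPS18C was lowest in the ANGPTL4 library, at 0.763 RPKM, against 1.19 RPKM in the vector control library. MRPL53 was lowest in the vector control library, with 2.07 RPKM in the ANGPTL4 library and 0.226 RPKM in the vector control library.

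**Figure D1:**
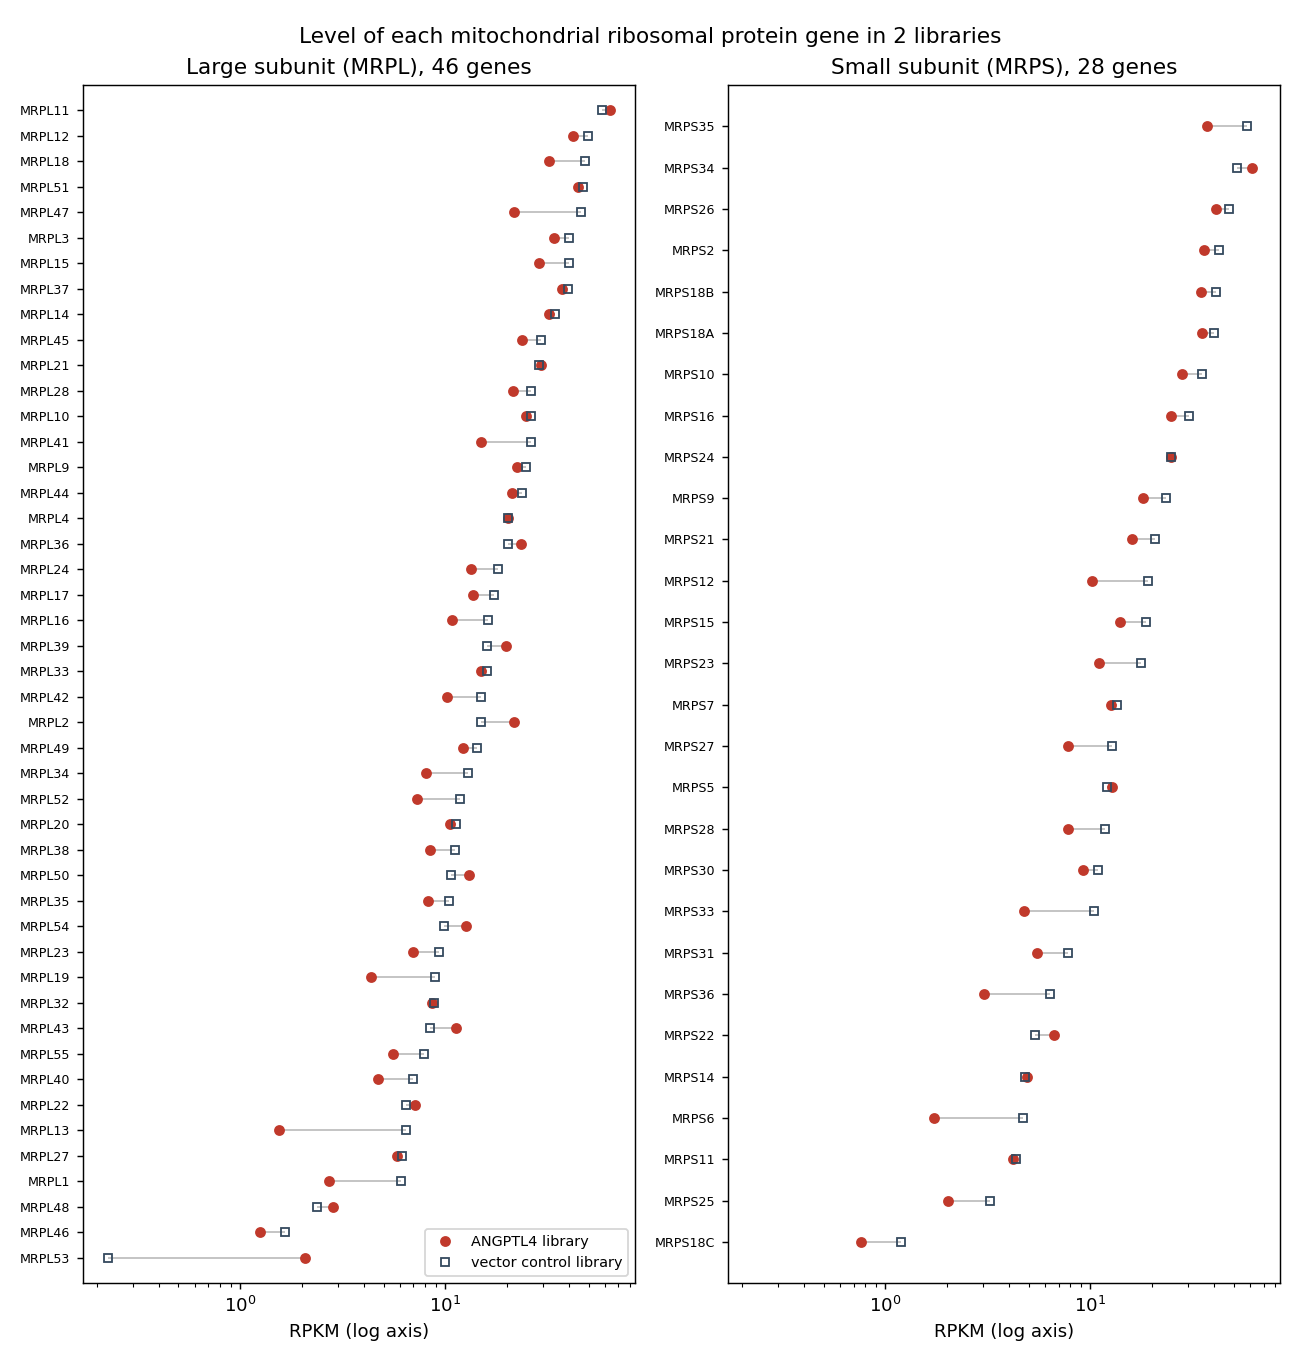
RPKM of each of the 46 large subunit genes (left) and 28 small subunit genes (right) on a log axis, 1 filled point for the ANGPTL4 library and 1 open square for the vector control library. Genes are ordered by the vector control level, and for 59 of 74 the filled point lies left of the square.

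Most mitochondrial ribosomal protein genes were somewhat lower in the ANGPTL4 library. On the log2((RPKM + 1) / (RPKM + 1)) scale, ANGPTL4 over vector control, 59 of 74 genes were below 0, or 79.7%, against 64.4% of all measured genes. Their median was -0.24, with single genes between -1.55 and 1.32, and the median of all 11801 measured genes was -0.11. Summed over the 74 genes, RPKM came to 1262 in the ANGPTL4 library and 1494 in the vector control library. In reads these were 8994 and 21528, a depth-corrected ratio of 0.849 (95% interval 0.828 to 0.870). All intervals here are exact and cover counting error only, not differences between cultures or preparations. In bulk RNA, fewer cells with a transcript and less of it per cell cannot be told apart.

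The median stayed below 0 and below that of all genes under every scaling tried, between -0.40 and -0.11. Centring on the median gene raised all values by 0.11. It left 47 of 74 genes below 0, against 49.9958% of all measured genes, a share that the centring itself sets. A fixed total per library shifted the median of all genes from -0.11 to -0.25, and upper-quartile scaling shifted it to 0.03. Under every one of the 13 alternatives tried, the members' median remained below that of all genes, by 0.09 to 0.17 on the log2 scale.

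Counting intervals show which single genes stand clear of counting error. The exon length was settled for 67 members, and for 29 of them (43.3%) the interval of the ratio lay below 1, against 26.9% of 7909 measured rows with a settled length. It lay above 1 for 3 members (4.48%), against 8.16%. For 35 members it included 1, so a difference was not detectable at this depth. A member had between 9 and 524 reads in the ANGPTL4 library, with a median of 104, and between 2 and 975 in the vector control library, with a median of 248.5.

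**Figure D2:**
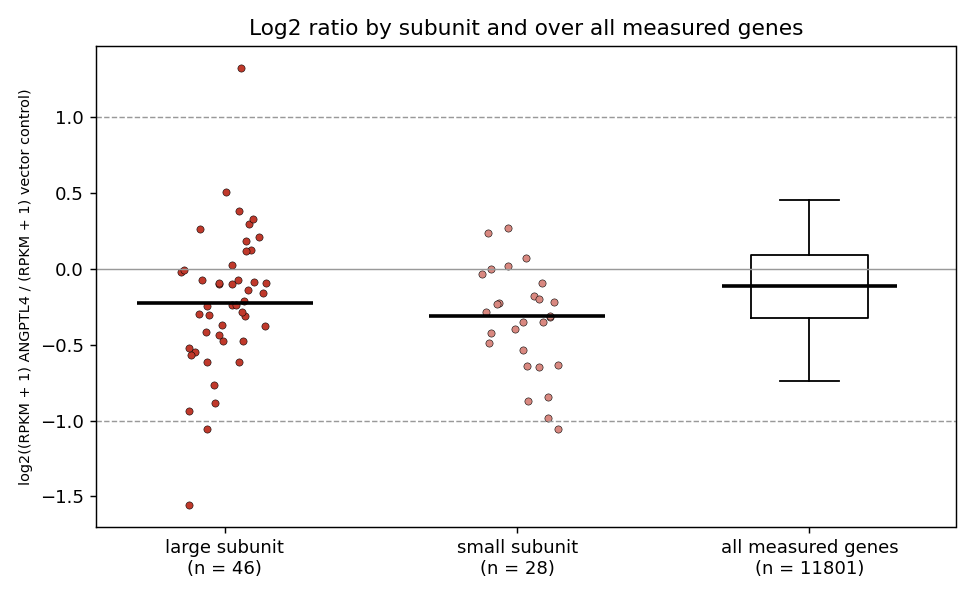
Log2 ratio, ANGPTL4 over vector control with 1 RPKM added, for each large subunit gene, each small subunit gene, and all measured genes as a box (quartiles, whiskers at the 5th and 95th percentiles). Thick lines are medians, at -0.23, -0.31 and -0.11, and dashed lines mark 2-fold.

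Both subunits had a median log2 ratio below the -0.11 of all measured genes, and that of the small subunit was the lower. Large subunit genes had a median log2 ratio of -0.23, with 35 of 46 below 0 (76.1%). Small subunit genes had a median of -0.31, with 24 of 28 below 0 (85.7%). Of all measured genes 64.4% were below 0. The difference between the medians, large minus small, was 0.09. It was -0.055 without the 31 members that have an annotated pseudogene, so its direction depends on which members are counted. The read ratio was 0.871 (0.844 to 0.900) for the large and 0.817 (0.785 to 0.849) for the small subunit. Reads of the 46 large subunit genes outnumbered those of the 28 small subunit genes in both libraries. The ratio was 1.56 to 1 (1.49 to 1.62) in the ANGPTL4 library and 1.46 to 1 (1.42 to 1.499) in the vector control library. Exon lengths were settled for 44 large and 23 small subunit genes, and the other genes enter these sums with minimum read numbers. In summed RPKM the ratios were 1.65 and 1.58 in the same order. Of settled members, the interval lay below 1 for 16 of 44 large and 13 of 23 small subunit genes. Over the 7909 measured rows with a settled length that share was 26.9%. The interval lay above 1 for 3 large and 0 small subunit genes, against 8.16% of those rows. No test between the subunits was made, since genes are not replicates.

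Some names do not match the place of the protein. MRPS18A and MRPS30 are known from structures to sit in the large subunit, and MRPS36 is known as a component of the 2-oxoglutarate dehydrogenase complex. With MRPS18A and MRPS30 counted as large and MRPS36 left out, the medians were -0.22 for 48 large and -0.32 for 25 small subunit genes. MRPS36 was at 3.03 RPKM in the ANGPTL4 library and 6.36 RPKM in the vector control library, a ratio of 0.476 (0.252 to 0.845). MRPS30 was at 9.17 RPKM in the ANGPTL4 library and 10.9 RPKM in the vector control library, with an interval that included 1.

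At least 2-fold lower values on the log2(RPKM + 1) scale were found for 3 of 74 members (4.05%), MRPL13, MRPS6 and MRPL47, against 1.92% of all measured genes. Under 4 of the alternatives, 3 scalings and the correction for exon length and GC content, 1 of 74 was left, against 1.18% to 1.36% of all genes, so the share was then near the background. MRPL13 is the counterpart of bacterial L13 (chromosome 8, 121393000 to 121457642, hg19). It was at 1.54 RPKM in the ANGPTL4 library and 6.47 RPKM in the vector control library, from 21 and 179 reads. Its ratio of 0.238 (0.144 to 0.376) was the lowest of all members, and the whole interval lay below 0.5. The annotated region of MRPL13 overlaps that of MTBP, whose reads cannot be separated with certainty where strand is not used.

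MRPS6, the counterpart of bacterial S6 (chromosome 21, 35445524 to 35515334, hg19), was at 1.73 RPKM in the ANGPTL4 library and 4.67 RPKM in the vector control library, a ratio of 0.370 (0.229 to 0.574). MRPL47, the counterpart of bacterial L29 beside the exit of the peptide tunnel (chromosome 3, 179306073 to 179322442, hg19), was at 21.7 RPKM in the ANGPTL4 library and 46.1 RPKM in the vector control library. From 96 and 415 reads, its ratio was 0.470 (0.373 to 0.588). It was the most abundant of the strongly lower genes, ranking 23 among members in the ANGPTL4 library and 8 in the vector control library. Both MRPS6 and MRPL47 were short of 2-fold after centring on the median gene, at -0.95 and -0.94 on the log2 scale, whereas MRPL13 was at -1.44.

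Without the added 1 RPKM, 7 of 74 members had a ratio of 0.5 or less, against 4.97% of all measured genes. The additional ones are MRPS33, MRPL1, MRPS36 and MRPL19. Of these, MRPL1 and MRPS36 had 17 and 15 reads in the ANGPTL4 library. MRPL1, the counterpart of bacterial L1, was at 2.71 RPKM in the ANGPTL4 library and 6.11 RPKM in the vector control library, and MRPL19 at 4.37 and 8.93 RPKM in that order. MRPS33 was at 4.76 RPKM in the ANGPTL4 library and 10.4 RPKM in the vector control library. Its exon length was not settled, and its reads, at least 14 and 62, give a ratio of 0.459 (0.237 to 0.829).

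**Figure D3:**
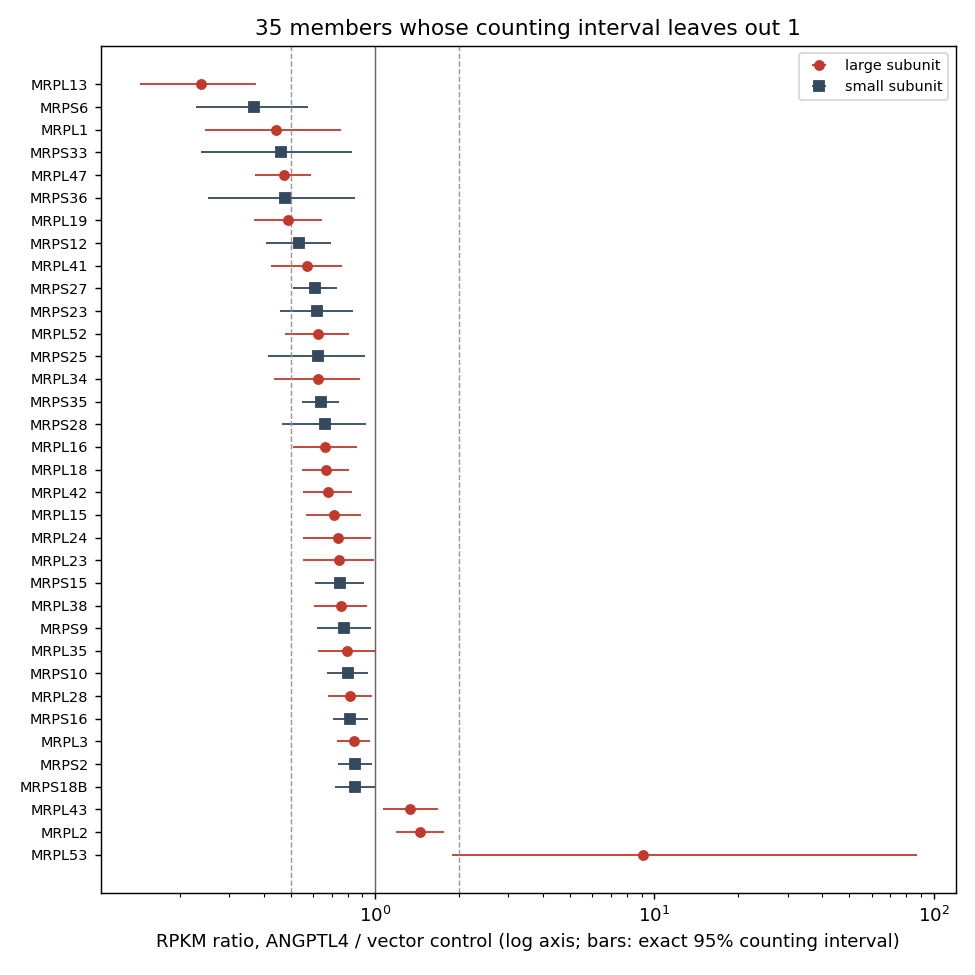
RPKM ratio, ANGPTL4 over vector control on a log axis, with exact 95% counting intervals, for the 35 members whose interval leaves out 1, settled or not (circles large, squares small subunit). 32 lie below 1, and MRPL43, MRPL2 and MRPL53 lie above it, MRPL53 with an interval from 1.89 to 87.0; dashed lines mark 2-fold.

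On the other side, 15 members had a ratio over 1, and 1 of them, MRPL53, was at least 2-fold higher, against 1.19% of all measured genes. MRPL53 is a protein of the large subunit without a bacterial counterpart (chromosome 2, 74699085 to 74700449, hg19). It was at 2.07 RPKM in the ANGPTL4 library and 0.226 RPKM in the vector control library, but from 9 and 2 reads, so the ratio of 9.15 has an interval of 1.89 to 87.0. Its region overlaps that of CCDC142. MRPL2, the counterpart of bacterial L2 beside the site of peptide bond formation (chromosome 6, 43021767 to 43027544, hg19), was at 21.6 RPKM in the ANGPTL4 library and 14.9 RPKM in the vector control library. From 177 and 249 reads its ratio was 1.44 (1.18 to 1.76), and of the 3 members with an interval above 1 it had the most reads. MRPL43 was at 11.3 RPKM in the ANGPTL4 library and 8.47 RPKM in the vector control library, a ratio of 1.34 (1.06 to 1.68). The region of MRPL2 overlaps KLC4 and that of MRPL43 overlaps C10orf2 and SEMA4G, so their reads carry the same limit as those of MRPL53. MRPL54 and MRPL39 followed with ratios of 1.28 and 1.24, and both intervals included 1.

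Of the small subunit genes, those with the highest ratios were MRPS22, MRPS34, MRPS5 and MRPS14, and every one of their intervals included 1. MRPS22, in which mutations are known to impair mitochondrial translation, was at 6.67 RPKM in the ANGPTL4 library and 5.37 RPKM in the vector control library. MRPS24 was level, at 24.7 RPKM in the ANGPTL4 library and 24.8 RPKM in the vector control library. Among well-counted lower members of this subunit, MRPS35 had a ratio of 0.639 (0.550 to 0.740) from 237 and 754 reads. MRPS27 had a ratio of 0.612 (0.511 to 0.730), and its region overlaps that of PTCD2. MRPS26 was at 41.2 RPKM in the ANGPTL4 library and 47.4 RPKM in the vector control library, and its interval included 1.

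Grouped by place in the ribosome, the log2 ratios of members beside each other varied, though many of their counting intervals overlapped. In the stalk, MRPL10, MRPL11 and MRPL12 had log2 ratios of -0.08, 0.13 and -0.24, and none of their intervals left out 1. Around the site of peptide bond formation, MRPL2 was at 0.50 on the log2 ratio scale, while MRPL3, MRPL16 and MRPL27 were at -0.25, -0.55 and -0.07. MRPL16 was at 10.8 RPKM in the ANGPTL4 library and 16.2 RPKM in the vector control library (ratio 0.664, 0.508 to 0.859). At the exit of the peptide tunnel the median log2 ratio was -0.38. MRPL47 was at -1.05, MRPL24 at -0.42, MRPL23 at -0.38 and MRPL45 at -0.30, and MRPL22 was at 0.12. The counting intervals of MRPL47, MRPL24 and MRPL23 lay below 1, and those of MRPL45 and MRPL22 included 1. MRPL45, which anchors the ribosome to the inner membrane, was at 23.7 RPKM in the ANGPTL4 library and 29.3 RPKM in the vector control library. Its exon length was not settled, and its ratio was 0.807 (0.581 to 1.11).

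In the central protuberance, the crest of the large subunit, the median log2 ratio was -0.37. MRPL18, which has a bacterial counterpart, was at 31.9 RPKM in the ANGPTL4 library and 47.9 RPKM in the vector control library (ratio 0.667, 0.548 to 0.808). MRPL38 had a ratio of 0.755 (0.603 to 0.939), MRPL40 one of 0.678 (0.433 to 1.03), MRPL46 one of 0.755 (0.462 to 1.20) and MRPL48 one of 1.20 (0.788 to 1.79). Of the genes of the decoding site and mRNA channel, MRPS12, the counterpart of the bacterial protein in which streptomycin resistance arises, was at 10.2 RPKM in the ANGPTL4 library and 19.2 RPKM in the vector control library. Its ratio was 0.535 (0.406 to 0.697), whereas those of MRPS5 and MRPS24 were 1.06 and 0.997. MRPS12 overlaps SARS2, so its reads are uncertain.

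Of the paralogues of bacterial S18, MRPS18C was far lower in level than the others. MRPS18A was at 35.2 RPKM in the ANGPTL4 library and 39.9 RPKM in the vector control library, and MRPS18B at 34.7 and 40.9 RPKM in that order. MRPS18C, the member that takes the place of bacterial S18, had 12 and 38 reads. The ratios were 0.881 for MRPS18A, 0.850 for MRPS18B and 0.642 (0.305 to 1.25) for MRPS18C, and MRPS18B alone had an interval below 1, with an upper bound of 0.9997.

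Members listed with a bacterial counterpart had a median log2 ratio of -0.28 (37 of 44 below 0, 84.1%). Members without one listed were at -0.23 (22 of 30 below 0, 73.3%), against 64.4% of all measured genes below 0. The S18 paralogues MRPS18A and MRPS18B, and MRPS36, are counted among those without one listed. MRPL41, which has no bacterial counterpart, was at 14.9 RPKM in the ANGPTL4 library and 26.2 RPKM in the vector control library (ratio 0.571, 0.423 to 0.762). By mean level over both libraries, the medians were -0.38 for the 25 lowest members, -0.22 for the 25 in the middle and -0.21 for the 24 highest.

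GC content moved with the ratio. All 7 members with a ratio of 0.5 or less were among the 25 members with the lowest GC content of the longest annotated transcript, 33.5% to 43.8%, where the median log2 ratio was -0.32. The 24 members in the middle were at -0.26 and the 25 with the highest GC content, 52.3% to 71.9%, at -0.18. Measured protein-coding genes in the same 3 ranges had medians of -0.18, -0.11 and -0.08, and 4.78%, 4.29% and 3.08% of them had a ratio of 0.5 or less. Across the 74 members Spearman's rho of log2 ratio and GC content was 0.27, and across 10393 measured protein-coding genes it was 0.13. After a correction for exon length and GC content fitted over 10698 measured genes, the members' median was -0.19 and that of the genes fitted was -0.11, and MRPL13, MRPS6 and MRPL47 were at -1.44, -0.96 and -0.89, of which MRPL13 is past 2-fold. The part of base composition in these differences was not tested. With exon length the members showed no such trend, with a Spearman's rho of -0.04.

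**Figure D4:**
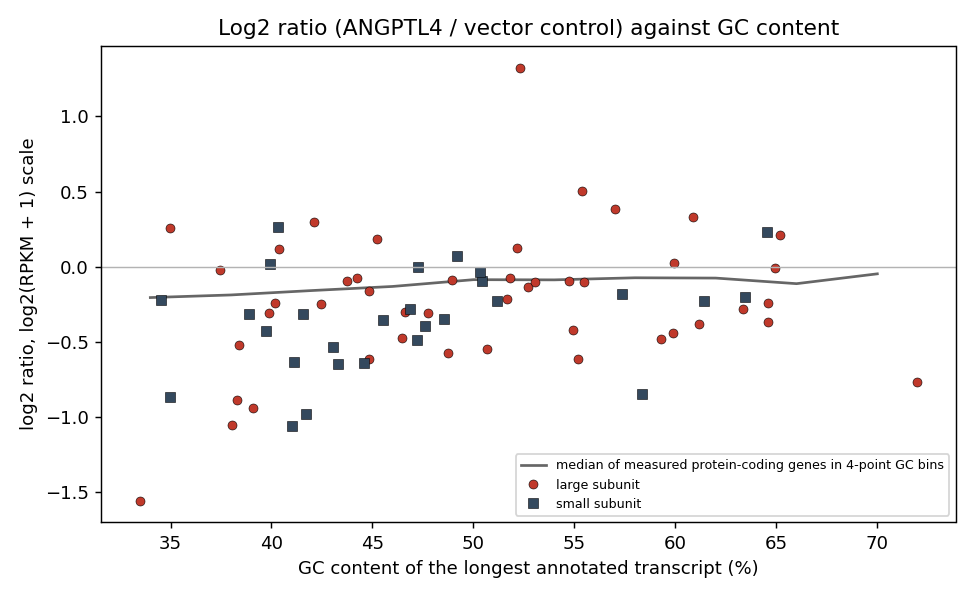
Log2 ratio (ANGPTL4 over vector control, 1 RPKM added) of each member against the GC content of its longest annotated transcript in percent, circles for large and squares for small subunit genes. The line is the median of measured protein-coding genes in bins of GC content, and the 3 members below -1 lie at 33.5%, 38.0% and 41.0% GC.

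Reads of near-identical copies and of overlapping genes limit single values. Annotated pseudogenes exist for 31 members, in 66 rows, of which 3 were above 0 and none reached 1 RPKM. The median log2 ratio was -0.25 for members with a pseudogene row and -0.24 for those without. The annotated regions of 33 members overlap another row of at least 1 RPKM, and their median was -0.23, against -0.30 for the other 41. On the log2(RPKM + 1) scale, all 3 members at least 2-fold lower and the 1 at least 2-fold higher are among the 33. On that scale 0 of the other 41 differed 2-fold. Without the added 1 RPKM, MRPL1, MRPS33 and MRPS36, which are among the 41, had ratios of 0.443, 0.459 and 0.476. MRPS6 overlaps AP000320.7 and MRPL47 overlaps ACTL6A. The part of overlapping reads in these values was not tested. MRPL30 and MRPS17 are not among the 74, since each is split over 2 rows with a numbered name. The higher row of MRPL30 was at 0.292 RPKM in the ANGPTL4 library and 2.87 RPKM in the vector control library, and that of MRPS17 at 1.51 and 2.38 RPKM in that order, both from few reads.

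Genes that serve the mitochondrial ribosome without an MRPL or MRPS name had values on both sides of 0. Of 7 mitoribosomal proteins named otherwise, 4 were below 0 on the log2 ratio scale (57.1%, against 64.4% of all measured genes). Their median was -0.27. The counting intervals of CHCHD1, AURKAIP1 and PTCD3 lay below 1. Those of ICT1 and of the 3 above 0, DAP3, GADD45GIP1 and MRP63, included 1. Exon lengths were not settled for ICT1, GADD45GIP1 and MRP63. CHCHD1, a small subunit protein, was at 7.09 RPKM in the ANGPTL4 library and 12.003 RPKM in the vector control library, and AURKAIP1, another, at 20.4 and 31.6 RPKM in that order. MRP63 was at 11.2 RPKM in the ANGPTL4 library and 9.42 RPKM in the vector control library, and GADD45GIP1, a large subunit protein, at 184.0 and 168.7 RPKM in that order, a level above that of every MRPL and MRPS gene.

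Of 21 genes of mitoribosome assembly 20 were measured, 13 of them below 0 (65%, near the 64.4% of all measured genes). Their median log2 ratio was -0.10, close to that of all genes. MALSU1, which keeps the maturing large subunit from joining the small one, was at 4.58 RPKM in the ANGPTL4 library and 10.4 RPKM in the vector control library. Its log2 ratio of -1.04 made it the 1 assembly gene past 2-fold. TFB1M, the methyltransferase of the small subunit rRNA, was at 3.28 RPKM in the ANGPTL4 library and 5.62 RPKM in the vector control library. NGRN and RBFA lay at the other end, with log2 ratios of 0.42 and 0.53. The exon length of RBFA was not settled, and its reads were at least 44 and 57. DDX28 was the gene not measured.

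Of 15 mitochondrial translation factors 10 were below 0 (66.7%, near the 64.4% of all measured genes). None differed 2-fold, and the median was -0.14. SLIRP, which binds mitochondrial messenger RNAs together with LRPPRC, was at 13.95 RPKM in the ANGPTL4 library and 22.8 RPKM in the vector control library, and MRRF, the ribosome recycling factor, at 7.92 and 10.3 RPKM in that order. The initiation factor MTIF3 was at 13.8 RPKM in the ANGPTL4 library and 10.7 RPKM in the vector control library, and C12orf65 had a log2 ratio of 0.23. The counting intervals of MTIF3 and C12orf65 included 1. Exon lengths were not settled for SLIRP, MRRF and MTIF3.

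Of 14 genes of mitochondrial transcription and its regulators 13 were measured, 10 of them below 0 (76.9%, against 64.4% of all measured genes). None differed 2-fold, and the median was -0.21. POLRMT, the mitochondrial RNA polymerase, was at 7.16 RPKM in the ANGPTL4 library and 10.9 RPKM in the vector control library. YY1 was at 16.4 RPKM in the ANGPTL4 library and 22.5 RPKM in the vector control library, and GABPA, the ETS factor named above, at 5.75 and 6.42 RPKM in that order. PPRC1, a coactivator of mitochondrial biogenesis, was at 26.1 RPKM in the ANGPTL4 library and 19.1 RPKM in the vector control library, and PPARGC1B had a log2 ratio of 0.18. The counting interval of PPARGC1B included 1, and exon lengths were not settled for YY1 and PPRC1. PPARGC1A was listed at 0 in both libraries.

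Transcripts that this ribosome translates were higher in the ANGPTL4 library. The 13 protein genes of the mitochondrial genome held 8.71% of reads in the ANGPTL4 library and 5.11% in the vector control library, and their median log2 ratio was 0.74. Cytosolic ribosomal protein genes, 83 of 88 measured, had a median log2 ratio of -0.42 with 65 below 0 (78.3%, against 64.4% of all measured genes). RPKM is relative to all reads of a library, mitochondrial ones included, and the part of their larger share in the members' values was not tested beyond a rescaling. Rescaled without mitochondrial, cytosolic ribosomal protein and small RNA genes, the median was -0.16 for the 74 members and -0.02 for all measured genes.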

How the data were processed

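Total RNA was extracted with TRIzol, per the labels' protocols, and 1 library per group was sequenced. Each deposited file gives 1 RPKM value per row, per the file headers, and coordinates are those of hg19, the build named in the submitters' processing notes. Aligner, counting program, use of strand and treatment of reads that match several loci are not given in the sources used here. Region starts count from 0 and are printed counting from 1.

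The total at which all 13 mitochondrially encoded protein genes gave whole reads (tolerance 0.0001) was taken as the depth. A row's exon length was taken as the integer that turned its RPKM into whole reads in both libraries. It was settled within 5 bases of the GENCODE release 29 exon length, or as the only candidate between 0.5 and 2 times that length, for 61.1% of 18483 rows above 0 and for 67 of 74 members, 59 of them at exactly the GENCODE length. Other rows carry the smallest candidate, so their reads are minimum numbers. Intervals are exact binomial intervals of 95%.

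Rows of 1 symbol were summed, which left 55771 symbols, and genes with at least 1 RPKM in a library were called measured. Log2 ratios use a pseudocount of 1, which understates differences of low genes. The same procedures were run on simulated libraries with counting error only, drawn from higher rows of settled length. These cannot speak to low or unsettled rows, overlapping genes or differences between cultures. No p-value can be had from single libraries, and lists are described by counts and medians beside those of all measured genes. Gene type, length and GC content come from GENCODE by symbol, without its coordinates, and promoters from RefSeq. Named genes are members past 2-fold, the 5 lowest and 5 highest log2 ratios and the 3 highest levels per subunit, the role lists, and the 2 ends of each other list. Others were named after their values were seen. The members and lists were chosen with earlier results of these data known. Alternatives were other pseudocounts, minimums, scalings, corrections for length and GC content, row choice, subunit assignment and leaving out members with pseudogenes. Tools were Python 3.11.15, numpy 2.4.6, pandas 2.3.3, scipy 1.17.1, scikit-learn 1.9.0 and matplotlib 3.10.9.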

Additional observations from a re-analysis of the deposited data

How the results depend on the processing

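The medians of all members, of the large and of the small subunit stayed below 0 under all 13 alternatives. They were, in that order, -0.13, -0.11 and -0.20 after centring on the median gene, -0.11, -0.069 and -0.18 with upper-quartile scaling, -0.40, -0.35 and -0.46 with a fixed total per library, and -0.16, -0.12 and -0.23 when rescaled leaving out mitochondrial, small RNA and ribosomal protein genes. They were -0.19, -0.16 and -0.21 after correction for GC content together with exon length. Correction for exon length alone gave -0.17 for the large subunit. A pseudocount of 5 gave -0.15 for the large and -0.24 for the small subunit. Without members that have a pseudogene row, the large subunit was at -0.28 and the small at -0.23, the difference between them turned to -0.055, and 34 of the 43 members left were below 0; the cause was not tested. The number of members at least 2-fold lower was 7 with a pseudocount of 0.1 (4.51% of all genes), 0 with a pseudocount of 5 (0.22%) and 6 with a fixed total (2.97%). It was 1 after centring (1.18%), with upper-quartile scaling (1.21%), when rescaled (1.36%) and after correction for length and GC content (1.19%), near the share of all genes. No minimum, a minimum of 5 RPKM, the highest row per symbol, the assignment of subunits by structure and summed RPKM in place of reads moved no value beyond counting error or, for counts, by more than 1.5 times. No paired analysis was possible because each group has 1 library, and for the same reason no library could be left out. Depth limits the ANGPTL4 library most, where 1 read weighs about 2.03 times as much.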

Other observations

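Mitochondrial ribosomal protein genes often start next to another gene. In GENCODE release 29, 27 of the 74 (36.5%) have a protein-coding gene on the opposite strand whose start lies within 1000 bases, against 2583 of 19931 protein-coding genes (13%). Of the 18 such neighbours that were measured, 12 were below 0 on the log2 ratio scale (66.7%, near the 64.4% of all measured genes). Their median was -0.13, close to the -0.11 of all measured genes. MRPL13 and MTBP start 2 bases apart, and their log2 ratios were -1.55 and 0.02. MRPL47 and NDUFB5, a subunit of respiratory complex I, start 36 bases apart and were at -1.05 and -0.37. MRPL46 and MRPS11, a large and a small subunit gene, start 34 bases apart and were at -0.24 and -0.04, and the counting intervals of both ratios included 1.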
